A study of Arabidopsis thaliana with 29 samples.

Results

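Leaf RNA from solvent-sprayed Arabidopsis thaliana plants was compared between 24 h and 6 h after the spray, across every gene with a deposited value. The members of the comparison were all libraries whose labels give DMSO and 6 h or DMSO and 24 h, which is 6 of the 29 libraries (3 for each time). All plants were wild-type Col-0, 3 weeks old, and none carried a transgene or mutation. By the methods of the study they were grown in soil under short days, with fewer light than dark hours. The 6 libraries came from plants sprayed with DMSO, the solvent of the tested compounds and the control of every treated group. Plants sprayed with 10 μM ABA, harvested after the same intervals (3 libraries for each), served as a second pair of harvests that shares no library with the first, and 1 DMSO library of 72 h served as a check of the 24 h level. The remaining libraries, from plants given AMF1β or AMF4, agonists of the ABA receptors, entered the fit only to estimate the spread between replicates, except where values are given. The values were FPKM (fragments scaled to transcript length and to the mapped fragments of the library), and fold changes are differences of log2(FPKM + 1) between 24 h and 6 h, so that a change of 1 is a doubling for genes well above 1 FPKM and less than that for low ones. The question was how far the control level itself moves between harvests, because each treated group was set against the DMSO plants of its own time. The clock time of spraying and harvest is not given in the sources used here, and harvests 24 h apart from the spray fall on the clock time of the spray while harvests after 6 h do not. Time since the spray and time of day therefore cannot be told apart in these groups.

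Many leaf transcripts cycle each day under the circadian clock, a network of transcription factors that repress one another in turn. CCA1 and LHY, related MYB factors, peak around dawn and repress evening genes. The pseudo-response regulators then follow in sequence, from PRR9 through PRR7 and PRR5 to TOC1, and repress CCA1 and LHY. ELF3, ELF4 and LUX form the evening complex, which represses genes in the early night, and RVE8 with the LNK proteins activates evening genes. Downstream of the clock lie flowering-time genes, starch turnover, pigment synthesis and the cold response.

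The promoters of these genes hold short elements by which clock proteins are known to act, and a set of them is shown here because several of the largest changes of the comparison were in genes that carry them. The evening element AAAATATCT is bound by CCA1, LHY and RVE8, the CCA1-binding site AAAAATCT by CCA1, and the G-box CACGTG by bHLH and bZIP factors such as PIFs and HY5. Each was searched on both strands of the 300 bases before the annotated gene start in TAIR10.1, and none of the letters contains another. The stretches below are 5′ to 3′ on the strand of the gene, with the evening element of either orientation in capitals. They belong to PRR5 (chr5:8358695-8358846, minus strand), TOC1 (chr5:24674782-24674850, plus), LUX (chr3:17182959-17183027, plus), FKF1 (chr1:25508423-25508491, plus) and GRP7 (chr2:9266558-9266663, minus), which were all lower at 24 h.
PRR5: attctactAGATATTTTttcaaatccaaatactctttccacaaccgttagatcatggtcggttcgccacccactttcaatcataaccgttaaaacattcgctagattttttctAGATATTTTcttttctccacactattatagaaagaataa
TOC1: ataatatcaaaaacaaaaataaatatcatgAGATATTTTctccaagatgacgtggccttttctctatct
LUX: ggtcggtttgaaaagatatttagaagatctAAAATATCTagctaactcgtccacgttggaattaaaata
FKF1: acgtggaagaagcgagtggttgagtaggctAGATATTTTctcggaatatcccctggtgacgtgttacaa
GRP7: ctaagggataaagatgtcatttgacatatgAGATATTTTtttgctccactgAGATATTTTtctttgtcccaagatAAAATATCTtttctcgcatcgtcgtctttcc

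The stretches of the morning genes CCA1 (chr2:19245368-19245433, plus strand), LHY (chr1:37916-37981, minus), PRR9 (chr2:19232333-19232470, plus) and LNK3 (chr3:3923314-3923409, plus) have the G-box in capitals, and these genes were higher at 24 h. The G-box was also in the promoters of RVE1, which was higher, and of PRR7 and RVE2, which were not called.
CCA1: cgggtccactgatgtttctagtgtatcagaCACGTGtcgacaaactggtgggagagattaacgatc
LHY: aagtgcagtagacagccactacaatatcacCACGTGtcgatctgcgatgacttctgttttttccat
PRR9: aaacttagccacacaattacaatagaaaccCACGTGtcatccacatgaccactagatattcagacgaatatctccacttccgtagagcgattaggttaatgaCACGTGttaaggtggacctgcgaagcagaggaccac
LNK3: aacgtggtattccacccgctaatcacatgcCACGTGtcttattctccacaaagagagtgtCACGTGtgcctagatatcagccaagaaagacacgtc

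The evening element was present in 7 of the 14 promoters of the evening-phased clock genes (6 of these genes were lower, and BOA was not called), in that of the morning-phased RVE7 (not called), in 125 of 1215 promoters of genes lower at 24 h (10.3%) and in 35 of 1430 of genes higher at 24 h (2.45%). Among all 27443 protein-coding promoters the share was 2.79%, and among those of the genes tested 3.04%. The G-box was present in 7 of the 14 promoters of morning-phased clock genes and in 11.6% of the promoters of genes higher at 24 h. It was in 8.31% of those lower at 24 h, 8.29% of those of the genes tested and 7.09% of all promoters. For the CCA1-binding site the shares were 6.57% of the genes higher and 9.55% of the genes lower, against 8.17% of the genes tested and 7.94% of all. These are shares of promoters with matching letters, and no test was run on them.

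The labelled tissue was leaf, and the summed level of 24 light-harvesting and Rubisco small subunit genes lay between 110805 and 169050 FPKM at 6 h and between 81184 and 169813 FPKM at 24 h. Of 6 root markers 4 were at 0 in all 6 libraries, and the sum of the root markers did not exceed 0.284 FPKM. The 3 seed markers were at 0 throughout, 4 of 5 shoot meristem markers were at 0, and the sums of 7 flower markers were 0.622 to 0.981 FPKM at 6 h and 0.574 to 1.44 FPKM at 24 h. The totals of reads cannot be read from FPKM. The step between low values gave the depth of each library relative to the others, with the median library of the series at about 1. In the 6 libraries it ran from 0.555 in 6 h replicate 1 to 1.3 in 6 h replicate 2. The summed FPKM of 6 h replicates 1, 2 and 3 was 1140080, 983419 and 879409, against 932034 to 1088540 at 24 h. That of 6 h replicate 1 was the highest of the 29 libraries. Pearson correlations of log2 values across genes were 0.965 to 0.981 among the 6 h libraries and 0.959 to 0.979 among the 24 h libraries, against 0.862 to 0.939 between the times. The 24 h replicate 2 stood apart from the others. It had 16759 genes at 1 FPKM or more against 16394 to 16593, and 964 transposable element genes above 0 against 196 to 304 in the other 5 libraries. Chloroplast-encoded genes took 4.61% of its summed FPKM against 1.58% to 3.21%, and its PSBA level (a chloroplast-encoded photosystem II subunit) was 4170 FPKM against 54.8 to 323. Whether the libraries of one group stem from different plants or pots is not stated in the labels, and the p-values reflect only how far these libraries vary. In whole leaves, fewer cells of a type and less RNA per cell cannot be told apart.

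Of 33559 genes in the table, 18521 reached 1 FPKM in at least 2 libraries and were tested. A gene was called at an adjusted p under 0.05 (limma, Benjamini-Hochberg over the 18521 genes) with a fold change above 2 or below 0.5. At 24 h, 1464 genes were called higher (7.90% of those tested) and 1236 lower (6.67%). With median-of-ratios scaling the split turned, at 1343 higher and 1367 lower, and with quantile normalization it was 1330 and 1288. Without the fold threshold 7053 had an adjusted p under 0.05. In 1428 of the genes called higher and 1216 of those called lower, the libraries of the times did not overlap. Over all genes tested, called or not, 4761 (25.7%) had all 24 h libraries above those of 6 h and 3755 (20.3%) all below. The median change was 0.06 over all genes tested, 1.41 over those called higher and -1.42 over those called lower. Very large changes were more frequent downward: 94 called genes fell by more than 3 on the log2 scale and 33 rose by more than 3. Leaving out 1 DMSO library at a time gave 2222 to 3196 called genes, the lowest without 24 h replicate 2, when 2111 of the 2700 genes were still called.

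Of 14 evening-phased clock genes measured, 11 were called lower and 0 higher, with a median change of -3.21 against 0.06 over all genes. PRR5, a repressor of CCA1 and LHY, was at 70.3, 72.8 and 52.9 FPKM at 6 h and at 1.97, 0.177 and 2.74 FPKM at 24 h. The groups did not overlap, and the change was -4.80 ± 0.40 (SE, n = 3 and 3, limma adjusted p = 1.32e-08). The subunits of the evening complex fell as well. ELF3 was at 17.5, 18.16 and 19.7 FPKM at 6 h and 0.814, 0.841 and 1.34 FPKM at 24 h, with a spread within each time of less than 2-fold (-3.29 ± 0.11, adjusted p = 2.03e-14 by limma). ELF4 was at 123, 111 and 83.5 FPKM at 6 h and 4.52, 0.208 and 6.62 FPKM at 24 h (-4.83 ± 0.61). LUX was at 36.8, 34.6 and 26.6 FPKM and then at 0.959, 0.0768 and 1.83 FPKM (-4.20 ± 0.34). In all of these the 24 h libraries lay far below the lowest 6 h library, and in PRR5, ELF4 and LUX replicate 2 was the lowest at 24 h.

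TOC1, the regulator last in the daily sequence, was at 34.5, 37.2 and 35.6 FPKM at 6 h and at 4.58, 3.43 and 4.08 FPKM at 24 h (-2.88 ± 0.18, adjusted p = 2.92e-10 by limma). GI, a partner of the light receptors that degrade TOC1, was at 53.9, 65.3 and 45.0 FPKM and then at 8.96, 10.9 and 9.74 FPKM (-2.35 ± 0.19). Both groups were tight and separate. FKF1, a blue-light receptor of the flowering pathway, was at 58.1, 54.5 and 42.1 FPKM at 6 h and at 1.57, 0 and 2.27 FPKM at 24 h (-4.68 ± 0.40). PRR3 fell by 4.15 and CHE, a TCP factor that represses CCA1, by 1.80. The largest decrease among called genes with separate groups and a symbol was in GRP7, an RNA-binding protein that cycles under the clock and damps its own transcript: 9201, 4698 and 3228 FPKM at 6 h against 180, 14.1 and 374 FPKM at 24 h (-5.69 ± 0.97, adjusted p = 9.9e-05 by limma). Its paralogue GRP8 fell by 3.12, from 2632, 1849 and 1066 FPKM to 232, 111 and 301 FPKM. GRP7 and GRP8 are similar in sequence, so their reads could have been shared. The members not called were ZTL (0.45, with a 95% interval of 0.14 to 0.77), LKP2 (0.21) and BOA (-0.43). ZTL and LKP2 are light receptors of the FKF1 family, and BOA is a relative of LUX that stayed under 1 FPKM in every DMSO library.

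The morning-phased genes changed the other way, with 10 of 14 called higher, 0 lower and a median change of 2.17. CCA1 was at 25.2, 9.32 and 2.24 FPKM at 6 h and at 119, 129 and 121 FPKM at 24 h (3.70 ± 0.41, adjusted p = 5.65e-07 by limma). LHY was at 27.9, 10.6 and 0.436 FPKM at 6 h and at 132, 240 and 139 FPKM at 24 h (4.39 ± 0.61, adjusted p = 9.51e-06 by limma), the largest rise among called genes with separate groups and a symbol. The 24 h libraries lay close together in CCA1, while in LHY replicate 2 was well above the others. In both genes the 6 h libraries differed by more than 10-fold, replicate 1 the highest and replicate 3 the lowest. RVE8 was at 7.87, 4.14 and 1.79 FPKM and then at 51.9, 59.0 and 43.3 FPKM (3.37 ± 0.26). Of the LNK genes, whose proteins act with RVE8, LNK3 rose by 3.18, LNK4 by 2.61, LNK2 by 2.36 and LNK1 by 1.98. PRR9 was at 11, 6.07 and 4.72 FPKM and then at 41.4, 41.9 and 39.0 FPKM (2.41 ± 0.19). RVE1, which links the clock to auxin synthesis, rose by 1.70 and RVE4 by 1.37. The 4 members not called were PRR7 (-0.73, adjusted p = 0.000136 by limma), RVE7 (-0.83), RVE6 (0.52) and RVE2 (-0.31). PRR7, which follows PRR9 in the day, was lower in each 24 h library than in any of 6 h, by less than the fold threshold. The counts of 10 and 11 called clock genes were the same without any single DMSO library.

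**Figure D1:**
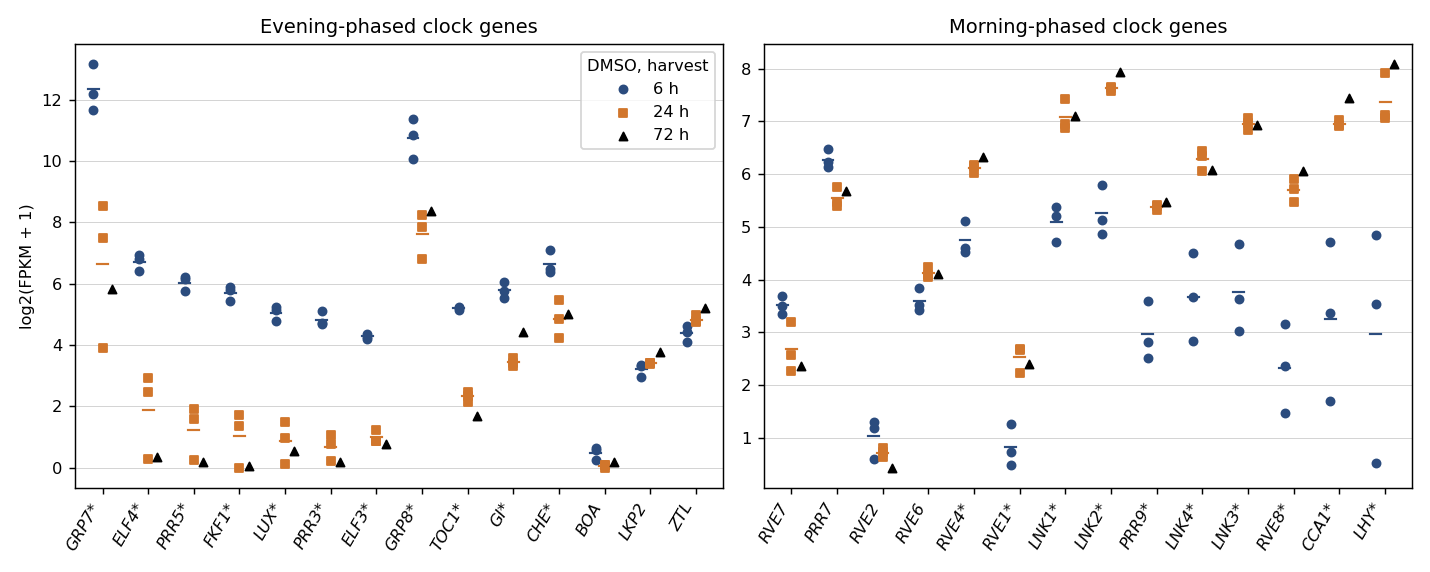
Levels of evening-phased (left) and morning-phased (right) clock genes in the DMSO libraries, as log2(FPKM + 1) on the vertical axis and genes on the horizontal axis, with 3 libraries each of 6 h (circles) and 24 h (squares) and 1 of 72 h (triangle). Short lines are group means and an asterisk marks called genes: 11 evening genes were lower and 10 morning genes higher at 24 h, the 72 h library lay near the 24 h ones, and the 6 h libraries were spread most in LHY, CCA1 and other morning genes.

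The flowering-time genes that peak in the morning rose with CCA1 and LHY. Of 8 photoperiod genes 6 were tested and 5 were called higher, with a median of 1.65. COL1, a relative of the flowering regulator CO, was at 17.0, 7.92 and 3.35 FPKM at 6 h and 81.1, 94.6 and 79.0 FPKM at 24 h (3.27 ± 0.35), and COL2 rose by 2.92. CDF1, CDF2 and CDF3, DOF factors that hold CO back in the morning, rose by 1.63, 1.57 and 1.68. CO and its target FT were too low to be tested, at no more than 0.325 and 0.0884 FPKM in any DMSO library. Among 22 light-signalling genes 9 were called higher and 3 lower. The early light-induced proteins, which bind freed chlorophyll under strong light, had the largest changes of the list: ELIP1 was at 28.5, 12.9 and 3.42 FPKM at 6 h and at 212, 259 and 133 FPKM at 24 h (4.0 ± 0.58), and ELIP2 rose by 3.88. HY5, a bZIP activator of light-induced genes, and its relative HYH rose by 1.76 and 2.22, and RUP2, a repressor of the UV-B receptor, rose by 2.31. PIF5, a growth-promoting bHLH factor, rose by 1.32, and PIF4 did not pass the test (-0.13, with an interval of -0.45 to 0.19). In the B-box family BBX25 rose by 2.44 while BBX22 fell by 2.91, from 79.0, 82.1 and 61.4 FPKM to 10.7, 7.77 and 8.60 FPKM. CRY2, a blue-light receptor, fell by 1.43 and PAR1, an atypical bHLH protein of the shade response, by 1.2.

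Starch is laid down in chloroplasts by day and broken down at night. Of 16 genes of breakdown measured, 7 were called lower, 2 higher and 7 neither, with a median of -0.87. DPE1, which joins short maltooligosaccharides, was at 44.7, 44.4 and 43.6 FPKM at 6 h and at 3.94, 2.54 and 4.19 FPKM at 24 h (-3.33 ± 0.21, adjusted p = 2.59e-10 by limma). GWD1, the glucan water dikinase that starts breakdown by phosphorylating the granule, was at 188, 231 and 187 FPKM and then at 39.3, 33.6 and 34.7 FPKM (-2.46 ± 0.19). The spread within each time was small and the groups were separate. PWD, which adds the second phosphate, fell by 2.3, the debranching enzyme ISA3 by 2.22, the amylase AMY3 by 2.21, and the phosphorylases PHS2 and PHS1 by 2.72 and 2.02. The 2 that rose were BAM1 and BAM9, at 1.83 and 2.49. BAM1 encodes a beta-amylase active by day in guard cells and under stress, and BAM9 a catalytically inactive relative. BAM3, the main beta-amylase of leaves at night, did not pass the test (-0.14, with an interval of -0.66 to 0.39). In the 9 genes of starch synthesis 2 were called in each direction. GBSS1, the granule-bound synthase that makes amylose, was at 126, 44.2 and 5.81 FPKM at 6 h and at 536, 609 and 394 FPKM at 24 h (3.90 ± 0.65, adjusted p = 7.53e-05 by limma). As in LHY, replicate 3 was the lowest and replicate 1 the highest at 6 h. SS2 rose by 1.25, while the branching enzyme gene SBE2.1 fell by 2.3 and SS4, which starts granules, by 1.63.

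Genes induced by darkness or low sugar were lower at 24 h in 11 of 17 cases, and 0 were called higher (median -1.10). DRM2, a dormancy-associated gene, was at 382, 182 and 388 FPKM at 6 h and at 10.13, 0.413 and 12.3 FPKM at 24 h (-5.66 ± 0.63, adjusted p = 5.43e-07 by limma). SEN5 fell by 3.82, DRM1 by 3.13 and DIN10, a raffinose synthase gene induced in the dark, by 2.82. TPS11 and TPS10, of the trehalose phosphate synthase family, fell by 1.53 and 1.22. These 6 calls held without any single DMSO library, whereas the count of 11 was 7 without 6 h replicate 3. Nitrate assimilation moved upward, with 4 of 7 called higher and 0 lower, and 2 higher without 6 h replicate 3. NIA2, the main nitrate reductase of leaves, was at 122, 126 and 75 FPKM at 6 h and at 573, 514 and 519 FPKM at 24 h (2.34 ± 0.27), and its paralogue NIA1 rose by 1.42.

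Chlorophyll synthesis changed in single steps. PORB, which reduces protochlorophyllide in the light, was at 1353, 1381 and 1151 FPKM at 6 h and at 31.8, 7.41 and 90.7 FPKM at 24 h (-5.46 ± 0.72, adjusted p = 5.74e-06 by limma), with the 24 h libraries spread over 10-fold and all far below those of 6 h. The PORB promoter held the evening element. PORA, of the same family, fell by 1.33 from at most 2.44 FPKM, and GUN4, a cofactor of magnesium chelatase, rose by 1.42. The other called gene of the 14, CAO (1.08), was at 0.85 without 24 h replicate 3. The antenna and Rubisco genes showed 2 of 24 called lower and 0 higher, with a median of -0.15. RBCS1A was at 28257, 21890 and 19598 FPKM at 6 h and 19484, 16506 and 27752 FPKM at 24 h, so that the groups overlapped. The call for LHCB1.2 was lost without 24 h replicate 2 (-0.67), 6 h replicate 1 (-0.99) or 6 h replicate 2 (-1.05). That for LHCB1.4 was lost without any single library other than 24 h replicate 3 (-1.15 to -1.83), and both genes have near-identical copies. Without 24 h replicate 2 the list had 1 gene called higher. For NYC1, a reductase that starts the breakdown of chlorophyll b, the values were 184, 178 and 172 FPKM at 6 h and 45.8, 47.8 and 45.1 FPKM at 24 h (-1.92 ± 0.14, adjusted p = 1.64e-09 by limma).

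**Figure D2:**
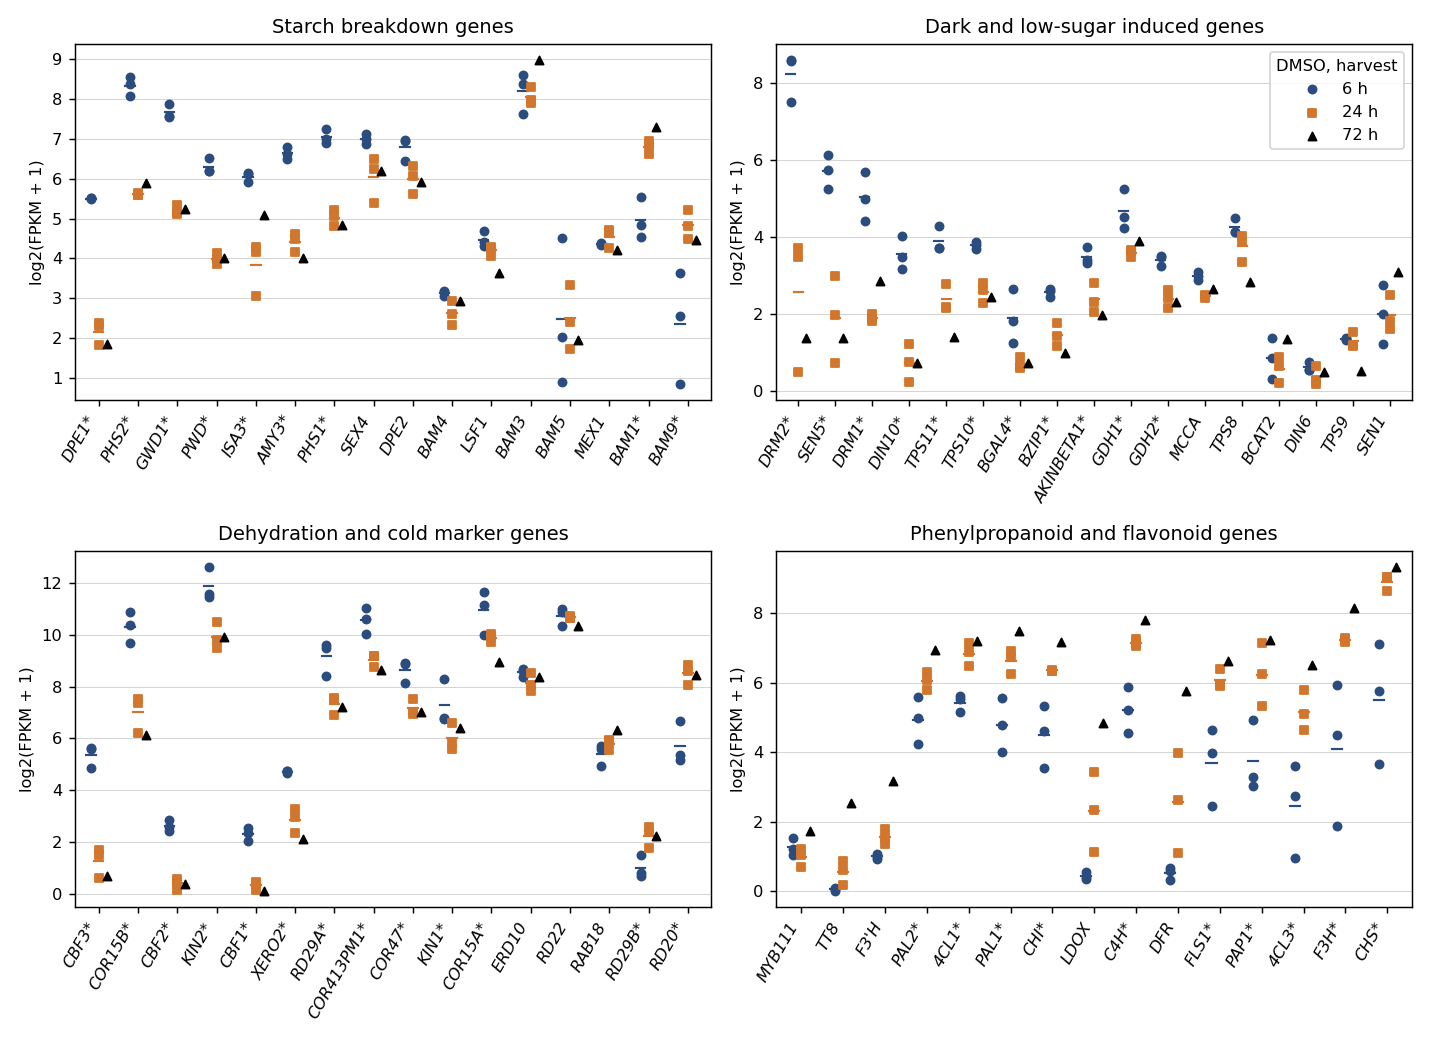
Levels of starch breakdown, dark and low-sugar induced, dehydration and cold, and phenylpropanoid and flavonoid genes in the DMSO libraries, as log2(FPKM + 1), with libraries of 6 h as circles, of 24 h as squares and of 72 h as a triangle. Short lines are group means and an asterisk marks called genes. In these lists 7 of 16, 11 of 17 and 11 of 16 genes were lower and 10 of 15 flavonoid genes were higher at 24 h.

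Of 16 cold and dehydration markers measured, 11 were called lower, 2 higher and 3 neither (median -1.50), and the labels name no cold or drought treatment. CBF3, an AP2 factor that activates cold-regulated genes and is gated by the clock, was at 48.8, 47.2 and 27.7 FPKM at 6 h and at 2.2, 0.525 and 1.84 FPKM at 24 h (-4.09 ± 0.34, adjusted p = 1.02e-08 by limma). CBF2 and CBF1 fell by 2.21 and 1.96. Their targets COR15B, KIN2, RD29A and COR413PM1 fell by 3.3, 1.96, 1.85 and 1.52. COR15B, which protects chloroplast membranes in the cold, was at 1909, 1329 and 824 FPKM at 6 h and at 164, 72.1 and 182 FPKM at 24 h. The dehydrin genes COR47 and XERO2 fell by 1.48 and 1.87. The call for COR15A was lost without 6 h replicate 1 (-0.69), 6 h replicate 2 (-0.94) or 24 h replicate 2 (-0.97), and that for KIN1 without 6 h replicate 1 (-0.75) or 24 h replicate 2 (-1.05). RD20, a calcium-binding caleosin induced by ABA and drought, went the other way, at 100, 39.6 and 34.3 FPKM at 6 h and 389, 459 and 269 FPKM at 24 h (2.80 ± 0.35, adjusted p = 2.95e-06 by limma). RD29B (1.24, adjusted p = 0.0293) was at 0.581 to 1.83 FPKM at 6 h and 2.35 to 4.93 FPKM at 24 h, and its call was lost without 6 h replicate 1 (1.14), 6 h replicate 2 (1.08), 24 h replicate 2 (1.07) or 24 h replicate 3 (1.17). RAB18 and RD22, often used as ABA markers, did not pass the test, at 0.40 (-0.34 to 1.15) and -0.06 (-0.53 to 0.41).

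In the control plants, the calls among ABA signalling genes were mostly in the phosphatases. ABA binds the PYR/PYL receptors, which then inhibit clade A PP2C phosphatases, the negative regulators of the pathway. Of 7 PP2C genes tested 5 were called higher and 0 lower (median 1.16), and 3 were called without 6 h replicate 3. HAB1 was at 12.6, 6.78 and 4.71 FPKM at 6 h and at 52.2, 72.2 and 40.3 FPKM at 24 h (2.68 ± 0.29, adjusted p = 4.61e-07 by limma). HAI1 rose by 1.59 and ABI2 by 1.33, and their 24 h libraries lay above all of 6 h. AHG3 (1.16) and HAB2 (1.07) were below the fold threshold without 6 h replicate 3, at 0.98 and 0.97, and HAB2 also without 24 h replicate 2, at 0.82. ABI1 did not pass the test (0.18, with an interval of -0.21 to 0.57). Of 8 receptor genes tested 1 was called, PYL8, which fell by 1.33. PYR1 (0.94, adjusted p = 0.00406) and PYL1 (0.91, adjusted p = 0.00175, both by limma) were higher at 24 h by less than the fold threshold, and PYL7 (-0.83) lower. PYL2 was at 209, 67.8 and 2.89 FPKM at 6 h and at 127, 62.1 and 134 FPKM at 24 h, with overlapping groups and an adjusted p of 0.235 by limma. The receptor list had 2 calls upward without 6 h replicate 1 or without 24 h replicate 1, and 1 without 24 h replicate 3. Among 8 genes of ABA synthesis and breakdown 1 was called: ABA1, the zeaxanthin epoxidase, at 150, 119 and 90.6 FPKM at 6 h and 428, 491 and 415 FPKM at 24 h (1.91 ± 0.19). NCED3, the rate-limiting dioxygenase of ABA synthesis under drought, did not pass the test (-0.45, with an interval of -1.0 to 0.09).

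Of the genes of phenylpropanoid and flavonoid synthesis 10 of 15 were called higher and 0 lower (median 1.87). CHS, chalcone synthase, was at 139, 53.4 and 11.6 FPKM at 6 h and at 402, 526 and 525 FPKM at 24 h (3.39 ± 0.73, adjusted p = 0.00103 by limma). F3H was at 60.4, 21.6 and 2.65 FPKM and then at 145, 149 and 155 FPKM (3.13 ± 0.63), and its change was 2.01 without 6 h replicate 3. In both genes the 24 h libraries were alike and the 6 h libraries were ordered as in LHY. 4CL3 rose by 2.73, PAP1, a MYB activator of anthocyanin genes, by 2.49, FLS1, flavonol synthase, by 2.39, C4H by 1.94, and PAL1 and CHI by 1.85 each. The late anthocyanin genes DFR and LDOX did not pass the test, at 2.05 (-0.56 to 4.66) and 1.87 (-0.43 to 4.18), with 1.14 to 14.9 and 1.16 to 9.70 FPKM at 24 h. Heat shock genes were higher in 5 of 10 cases (median 1.23). HSP90.1, a cytosolic chaperone, was at 2.44, 1.87 and 3.14 FPKM at 6 h and at 29.5, 49.3 and 23.1 FPKM at 24 h (3.27 ± 0.42). HSP70 rose by 3.07, HSFA2, a factor that prolongs the heat response, by 2.99, HSP17.6II by 1.76 and HSP101 by 1.48.

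Of 13 salicylate and defence genes 8 were called higher and 1 lower (median 1.1), with 5 higher without 6 h replicate 1 and 0 lower without 6 h replicate 3 or 24 h replicate 1. WRKY70 was at 50.1, 46.3 and 124 FPKM at 6 h and at 388, 373 and 212 FPKM at 24 h (2.23 ± 0.48). NIMIN1, a partner of the salicylate receptor NPR1, rose by 2.41, the lipase-like EDS1 by 1.54, the transporter EDS5 by 1.41 and ICS1, isochorismate synthase, by 1.4. PR1 (2.39) was at 1.84 with an adjusted p of 0.0512 without 6 h replicate 1. In this list replicate 3 was the highest of the 6 h libraries in each gene named. Of 12 glucosinolate and sulfate assimilation genes 3 were called higher and 0 lower. The adenylylsulfate reductases APR2 and APR3, which control sulfate assimilation, rose by 2.45 and 1.52. Of 9 senescence genes 3 were called higher and 1, NYC1, lower. The factor NAP was at 7.93, 5.46 and 10.5 FPKM at 6 h and at 67.3, 73.5 and 35.5 FPKM at 24 h (2.71 ± 0.32), SAG13 rose by 1.93 and SGR1, which removes magnesium from chlorophyll, by 1.70.

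The remaining lists follow, to be read beside the 14.6% called over all genes tested (7.90% higher and 6.67% lower). Some of them were below that share and some above it. Of 10 cell division genes 0 were called by limma and 0 had an unadjusted p under 0.05 (median 0.07). Of 9 guard cell genes 0 were called, while 3 had an unadjusted p under 0.05 upward and 1 downward (median 0.35). Of 15 rapid touch and wound genes 1 was called, WRKY33 (1.54) (2 without 6 h replicate 3 or 24 h replicate 3), and the touch gene TCH4 was at 0.29. Among 15 jasmonate genes 3 were higher and 2 lower, with LOX3 and JAZ5 at 1.2 and 1.44 and AOC2 at -1.56. Leaving out single DMSO libraries gave 2 to 4 higher, and 1 lower without replicate 1 or 3 of either time. The call for JAZ10 (1.04) was lost without 6 h replicate 2 (0.96), 6 h replicate 3 (0.76), 24 h replicate 2 (1.06) or 24 h replicate 3 (0.94). Of 14 auxin genes IAA14 and IAA17 rose by 1.66 and 1.77 and IAA29 fell by 1.17. In the gibberellin and brassinosteroid list 1 of 8 genes was called higher and 1 lower, with 3 lower without 24 h replicate 3 and 2 without 6 h replicate 1. The call for GA3OX1 (1.32), of gibberellin synthesis, was lost without 6 h replicate 3 (1.15) or 24 h replicate 3 (1.12), and the receptor gene GID1A was at 24.4, 21.0 and 16.8 FPKM at 6 h and 4.56, 4.50 and 5.07 FPKM at 24 h (-1.91 ± 0.15). Of 17 aquaporins 4 were called higher, and 7 without 6 h replicate 1. PIP2;1 and PIP1;1, water channels of the plasma membrane, rose by 1.49 and 1.33. PIP2;3 (2.08) was at 1.37 without 6 h replicate 3, and PIP2;3 has a near-identical neighbour. Of 17 expansin and xyloglucan hydrolase genes XTH6 rose by 1.6. The call for EXPA8 (-1.6), an expansin gene, was lost without 6 h replicate 1 (-1.69), 6 h replicate 3 (-1.16), 24 h replicate 1 (-1.25) or 24 h replicate 2 (-1.09), and its change was -2.48 without 24 h replicate 3. The wax list had 2 of 7 called, 0 without 6 h replicate 3 or 24 h replicate 2, and 1 without 6 h replicate 2 or 24 h replicate 3. Of 6 reference genes PP2AA3 was at -0.02 (-0.28 to 0.23), UBQ10 at 0.57 and ACT2 at 0.46, and the call for EF1A (-1.17), a family with near-identical copies, was lost without 24 h replicate 2 (-0.87).

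**Figure D3:**
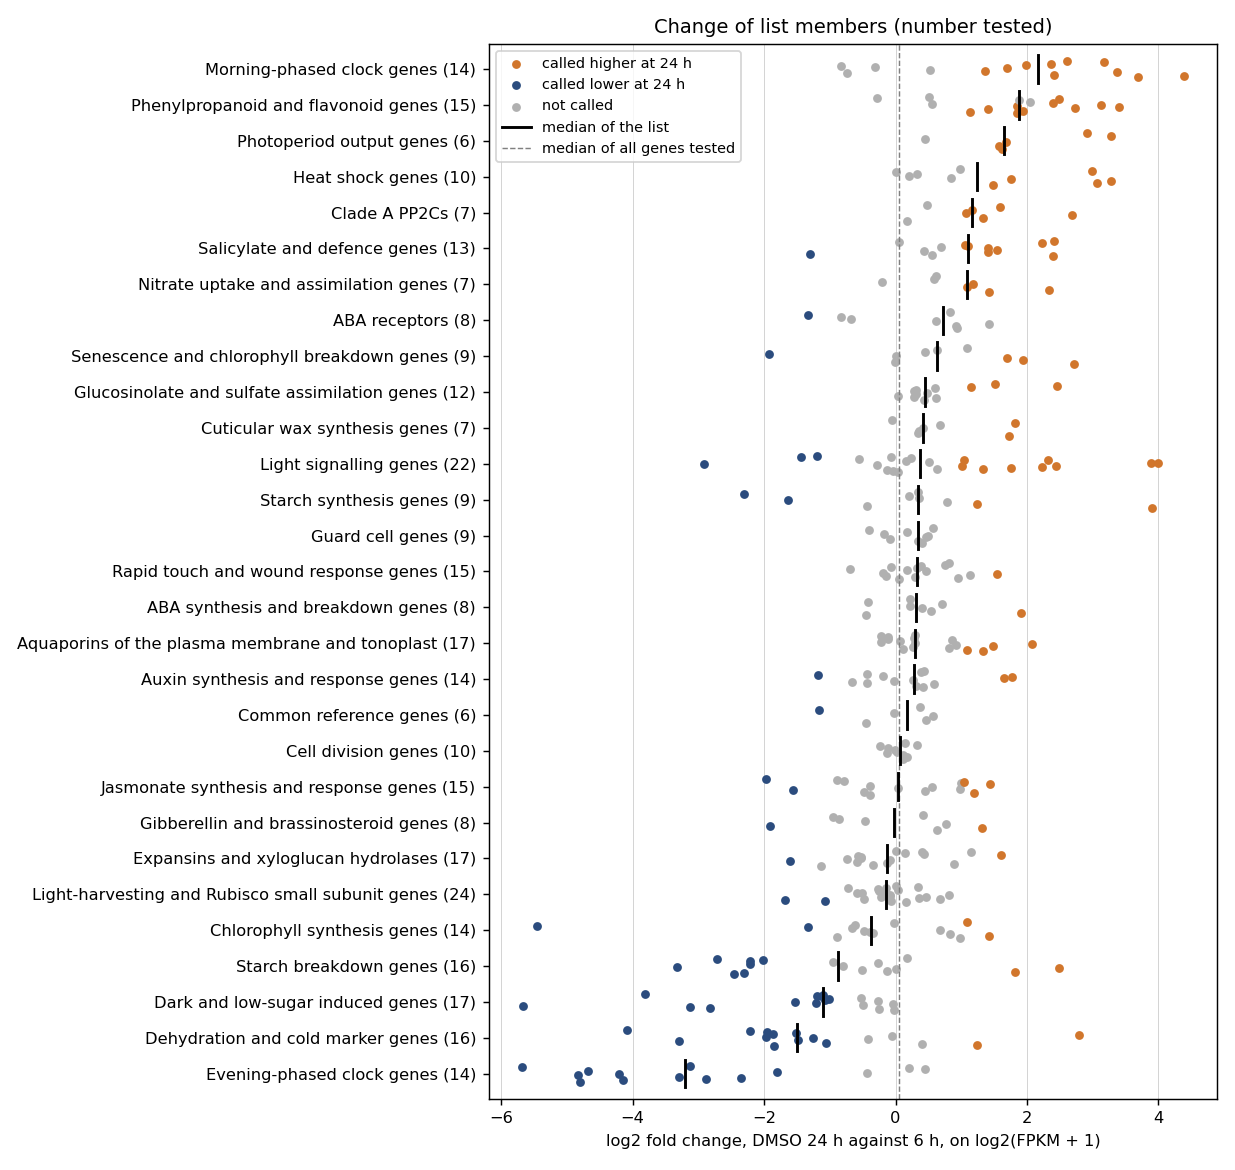
Log2 fold change between 24 h and 6 h in DMSO plants (horizontal axis) for each tested member of 29 gene lists (vertical axis, number tested in brackets), with called genes in colour, the median of each list as a black bar and the median of all genes tested (0.06) as a dashed line. The morning-phased clock genes had the highest median (2.17) and the evening-phased clock genes the lowest (-3.21).

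Outside the lists, the largest changes among called genes with separate groups and a symbol were downward. MEE14 was at 228, 244 and 339 FPKM at 6 h and at 7.56, 0.786 and 12.6 FPKM at 24 h (-5.50). DJC76, a chloroplast DnaJ protein, was at 217, 220 and 209 FPKM and then at 6.95, 0.741 and 8.92 FPKM (-5.39). All 6 h libraries of these genes were within 1.5-fold of one another and more than 10-fold above any of 24 h. Also among the 20 largest decreases, the chloroplast thioredoxin WCRKC1 fell by 4.87, the Rubisco assembly chaperone RbcX1 by 4.56 and the chloroplast RNA-binding protein CP29 by 4.25. The germin GER3 fell by 4.81, the defensin-like LCR69 by 4.80, BBX8 by 4.31, COR27, a cold-regulated repressor within the clock, by 4.23, the glucosidase BGLU44 by 4.18 and Fes1B by 4.01. Among the 20 largest increases were NUDT24 (3.76), the prenyltransferase cPT4 (3.70), the chalcone isomerase-like CHIL (3.68) and ASG4, a MYB factor of the RVE family (3.34). They also included BBX32 (3.29), the inositol phosphate synthase MIPS2 (3.26), the ammonium transporter AMT1;2 (3.21) and the glycerol-3-phosphate transporter G3Pp1 (3.14). NUDT24 varied widely, at 30.3, 39.5 and 8.46 FPKM at 24 h (SE of the change 1.05). In the treated libraries of 6 h it was at 2.84 to 123 FPKM. CPuORF32 (3.81), a short open reading frame that overlaps the gene downstream of it, was at 0.0255 FPKM in 6 h replicate 2 against 19.7 and 23.597 FPKM in the other 6 h libraries, and was not called without that library (2.32), 24 h replicate 1 (3.69) or 24 h replicate 2 (3.59).

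The 72 h library, harvested at the same clock time as the 24 h ones if the intervals were exact, lay close to the 24 h level. Its values correlated with those of 24 h at r = 0.962 to 0.972 and with those of 6 h at 0.885 to 0.908, across genes. In the comparison of 72 h with 24 h, 3 genes were called of 18521 (0.0162%), all higher at 72 h, and 1251 had an unadjusted p under 0.05. This fit assumes that the single 72 h library varies like the other groups. The 3 were EBP, an ethylene response factor (2.84, at 495 FPKM against 58.2 to 90.099 FPKM at 24 h), RL1 (2.15) and MGP (1.37), and 0 of them were among the genes called between 24 h and 6 h. Without 24 h replicate 1, 1 gene was called. Among the 1464 genes higher at 24 h, the 72 h library lay above all 6 h libraries in 1370 (93.6%), and among the 1236 lower genes it lay below them all in 1215 (98.3%). These genes were chosen on the same 6 h libraries. Over all genes tested the 72 h library lay above all 6 h libraries in 40.7% and below them all in 33.3%. The median difference between 72 h and 24 h was -0.04 over the former and 0.02 over the latter. CCA1 was at 173 FPKM and LHY at 270 FPKM at 72 h, above each 24 h library. PRR5 was at 0.145 FPKM and ELF4 at 0.267 FPKM, within the range of the 24 h libraries or below it, and GI at 20.5 FPKM was between the times.

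The clock genes of plants sprayed with ABA changed in the same directions between their own harvests. There, 1101 genes were called higher (5.94%) and 1277 lower (6.89%) at 24 h against 6 h. The evening-phased list had 11 genes lower with a median of -3.30, beside -3.21 in DMSO plants, and the morning-phased list 10 higher with a median of 2.16, beside 2.17. In ABA plants PRR7 was called lower (-1.1), where 0 morning-phased genes were lower in DMSO plants. Over all genes 690 were called higher in both, which is 47.1% of the DMSO calls and 62.7% of the ABA calls, and 675 were called lower in both (54.6% and 52.9%), while 20 were called in opposite directions. PRR5 changed by -5.11 in ABA plants and by -4.80 in DMSO plants, TOC1 by -3.34 and -2.88, CCA1 by 4.41 and 3.70, and GBSS1 by 6.36 and 3.90. Neither CCA1 (adjusted p of the difference 0.495) nor LHY (0.133), PRR5 (0.802) or GBSS1 (0.103) passed the limma test of the difference between treatments. LHY was at 105 to 175 FPKM in the ABA libraries of 24 h and at 0.433 to 0.713 FPKM in those of 6 h.

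The change between harvests differed between DMSO and ABA plants in 972 genes (5.25% of those tested), 554 with the higher and 418 with the lower value in DMSO plants. The count was 571 without ABA 6 h replicate 1, 619 without ABA 6 h replicate 3 and 612 without DMSO 24 h replicate 2. Of the 2700 genes called in DMSO plants 400 (14.8%) were among the 972. Of 360 list members tested 143 were called in DMSO plants, and 21 of these had a called difference, 18 with the higher and 3 with the lower value in DMSO plants. RD20 rose by 2.80 in DMSO plants while its change in ABA plants was -0.29, from 413 to 694 FPKM at 6 h to 414 to 559 FPKM at 24 h (difference 3.09 ± 0.50, limma adjusted p = 0.00127). The ABA libraries of 6 h already lay above every DMSO library of 6 h. SAG13 rose by 1.93 in DMSO plants and fell by 2.56 in ABA plants (difference 4.50 ± 0.56, limma adjusted p = 0.000233). HAI1 rose by 1.59 in DMSO plants and did not pass the test in ABA plants (-1.01, adjusted p = 0.0722), with a difference of 2.59 ± 0.59 (limma adjusted p = 0.00961). XERO2 fell in both, by 1.87 and 4.88 (difference 3.02 ± 0.41). Of the clock genes RVE8 alone passed the test of the difference, at -1.33 ± 0.37 (limma adjusted p = 0.0315).

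**Figure D4:**
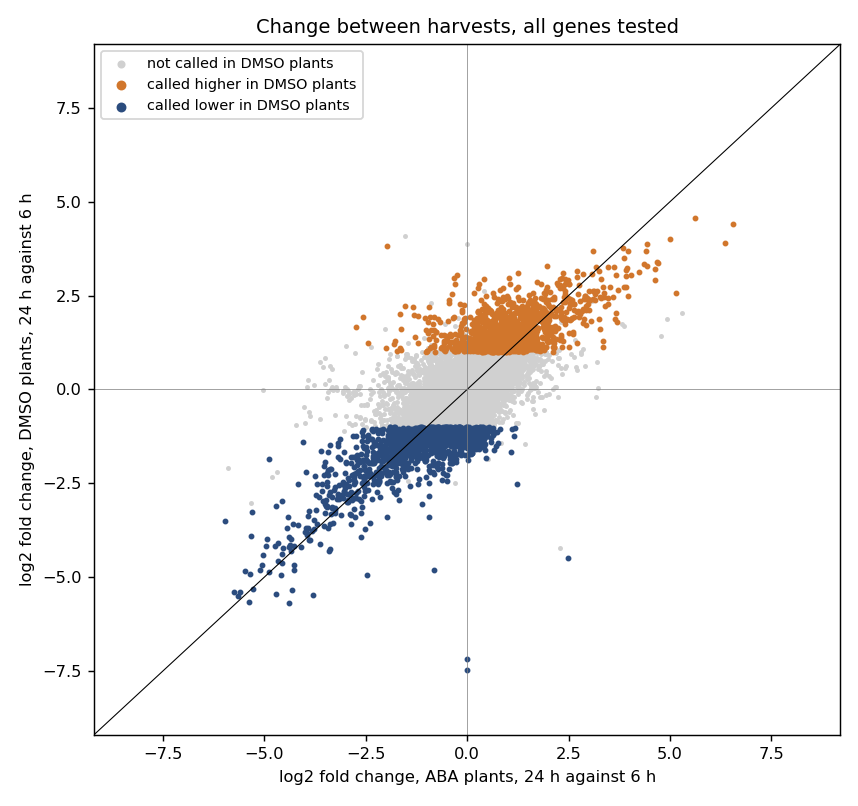
Log2 fold change between 24 h and 6 h in ABA plants (horizontal axis) and DMSO plants (vertical axis) for the 18521 genes tested, each point 1 gene and the diagonal the line of equal change. Genes called higher (1464) and lower (1236) in DMSO plants are coloured, and 690 and 675 of them were also called in the same direction in ABA plants.

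The 3 DMSO libraries of 6 h were not alike for genes that rose. In 659 of the 1464 genes called higher (45.0%) replicate 1 was the highest and replicate 3 the lowest of the 6 h libraries, against 4277 of all 18521 tested genes (23.1%). LHY was at 27.9 FPKM in replicate 1, at 10.6 FPKM in replicate 2 and at 0.436 FPKM in replicate 3, while the 9 treated libraries of 6 h lay between 0.433 and 0.983 FPKM. CCA1 in the 9 treated libraries was at 3.93 to 7.23 FPKM, GBSS1 at 3.92 to 24.1 FPKM and ELIP2 at 0 to 0.501 FPKM. For LHY, RVE8, COL2, GBSS1 and ELIP2, DMSO replicates 1 and 2 lay above each treated library of 6 h. For the same genes replicate 3 lay within the range of the treated libraries. In other genes replicate 3 lay outside as well, on the low side. It was below every treated library of 6 h in CCA1 and in ELIP1 (3.42 FPKM against 3.99 to 13.9 FPKM). The same held in F3H (2.65 against 6.42 to 26.2 FPKM) and in CHS (11.6 against 16.5 to 202 FPKM). Replicate 1 lay above the treated range in CCA1 (25.2 FPKM), ELIP1 (28.5 FPKM) and F3H (60.4 FPKM). Replicate 2 lay above it in CCA1 (9.32 FPKM) and inside it in ELIP1 and F3H. In CHS replicates 1 and 2 both lay inside the treated range. CHS in the ABA libraries of 6 h was at 17.3 to 18.3 FPKM, so an AMF1β or AMF4 library set the upper bound. The treated ranges include AMF4 replicate 1, with 21835 genes at 1 FPKM or more and 3160 transposable element genes above 0. They also include AMF4 replicate 2, with 1806 such transposable element genes. Without AMF4 6 h replicate 1, 2708 genes were called between DMSO 24 h and 6 h. PYL2, the ABA receptor gene that the study placed behind a drought-inducible promoter in other plants, had the same order: 209 and 67.8 FPKM in replicates 1 and 2 and 2.89 FPKM in replicate 3, against 0.997 to 1.94 FPKM in the treated libraries. Replicate 3 thus also lay above the treated range. The paper reports lower PYL2 expression under ABA and AMF treatment, so that range is not a control level for this gene. The part of these libraries in the results was measured by leaving out replicates 1 and 2, an alternative added after seeing the data. Then 2765 genes were called, 1645 higher and 1120 lower, and 2068 of them (76.6% of the 2700) were called before. LHY changed by 6.84, CCA1 by 5.26, RVE8 by 4.22, GBSS1 by 6.21, CHS by 5.25, F3H by 5.37, ELIP1 by 5.46 and PYL2 by 4.72. Since replicate 3 was the lowest of the 6 h libraries in these genes, larger rises follow from keeping it alone, and the values are a description. The 6 h group is then 1 library, which the fit assumes to vary like the other groups. The clock lists still had 10 and 11 called genes and the flavonoid list 10, while the dehydration and cold list had 7 lower and 1 higher, the salicylate list 3 higher, the jasmonate list 6 higher and 0 lower, the glucosinolate and sulfate list 6 higher and the antenna list 0 lower and 1 higher. Of 163 called genes that are list members or among the 20 largest per direction 142 were still called and 21 were not, among them WRKY70 (1.33), NIMIN1 (1.13), PR1 (1.32), SAG13 (1.38), COR47 (-0.98) and RD29B (0.72). At 24 h, replicate 2 was the lowest of its group in 755 of the 1236 genes called lower (61.1%), against 5829 of all tested genes (31.5%). FKF1 was at 0 in that library and at 1.57 and 2.27 FPKM in the others, and GRP7 at 14.1 FPKM against 180 and 374 FPKM.

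**Figure D5:**
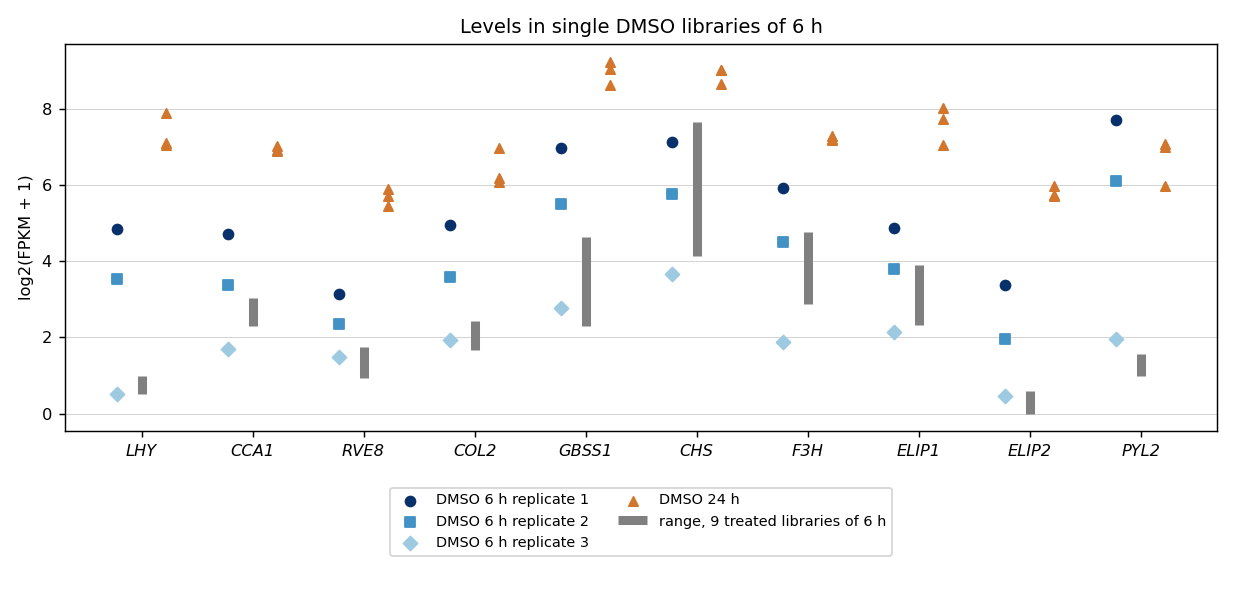
Levels of 10 genes in single libraries as log2(FPKM + 1), with DMSO 6 h replicate 1 (circle), replicate 2 (square) and replicate 3 (diamond), the 3 DMSO libraries of 24 h (triangles) and the range of the 9 libraries of 6 h from ABA, AMF1β and AMF4 plants (grey bar). Replicate 1 was the highest and replicate 3 the lowest of the 6 h DMSO libraries in all 10 genes, and PYL2 in replicate 1 was above all 24 h libraries.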

How the data were processed

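RNA-seq of leaves was analysed from 29 libraries of 12 groups, 6 of them the DMSO libraries of 6 h and 24 h. The authors mapped the reads with TopHat (TopHat2 in the submitters' processing notes) on TAIR10, computed FPKM with Cufflinks and deposited these FPKM. For both tools the version is not given in the sources used here. Methods of the study speak of duplicate biological replicates without naming them, and all libraries were used. Read totals cannot be had from FPKM, so depth is known only relative to the median library, and an exact 0 of a short RNA may be a failed estimate. There were 0 columns that could not be assigned to a sample, and 0 pairs of libraries with identical values.

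Values were taken to log2(FPKM + 1), genes that reached 1 FPKM in at least 2 libraries were kept, and a mean for each group was fitted with limma 3.58.1 in R 4.3.3 (trend, 17 residual and 3.82 prior degrees of freedom). Tests were two-sided, with Benjamini-Hochberg adjustment over the 18521 genes in each comparison. In simulated data of this design over these genes, changes were placed only in genes with a mean log2(FPKM + 1) above 2. There, 90% of 100 genes changed by 1.5 and 100% of 100 genes changed by 3 were called between DMSO 24 h and 6 h, with 5 false calls. The simulated noise was independent between genes. Shifts shared by many genes of a library were not part of it, so these rates may not hold for the real libraries. Genes named are members of gene lists, the 20 genes per direction with the largest change among called genes whose groups do not overlap, and the 10 genes with the largest range at 6 h; EBP, RL1 and MGP were named after their values were seen. The comparison, its members and the lists were chosen with earlier results of these data known. Lists were described by counts and medians, with no set test. Promoters were read by locus tag from the TAIR10.1 genome and annotation, since the deposited table holds no coordinates, in place of a promoter table. The alternatives were another pseudocount, other filters, scalings and spreads, the 6 DMSO libraries alone, the 24 h and 72 h libraries together, and a replicate block. Each DMSO and ABA library of 6 h and 24 h was also left out in turn, as was AMF4 6 h replicate 1. The other AMF1β and AMF4 libraries and those of 72 h were not left out singly.

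The replicate numbers were checked for pairing. Deviations from the group means of same-numbered 6 h and 24 h libraries correlated at -0.01, 0.113 and -0.204 across genes, so the numbers were not taken to pair the libraries.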

Additional observations from a re-analysis of the deposited data

Results flagged for a closer look

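The change between 24 h and 6 h differed between DMSO and ABA plants, by limma's test of the difference, in 972 genes. Among the list members called in DMSO plants, the difference of the log2 change (DMSO minus ABA) was below 0 for RVE8 (-1.33), IAA29 (-1.28) and APR3 (-1.10). It was above 0 for the dehydration genes COR47 (1.90), XERO2 (3.02), RD20 (3.09) and RD29B (3.68) and for the PP2C genes AHG3 (1.22), HAB1 (1.48), ABI2 (1.82) and HAI1 (2.59). It was above 0 also for the senescence genes SGR1 (1.5), NAP (2.44) and SAG13 (4.50), the jasmonate genes JAZ5 (1.58) and JAZ10 (2.66), and EDS5 (1.07), TPS10 (1.22), BAM1 (1.51), NIA1 (1.82) and HSP17.6II (1.87). What sets these differences was not tested.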

How the results depend on the processing

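No called named gene changed sign under an alternative (0 of those run), whereas values that did not pass the test could: without DMSO 6 h replicates 1 and 2, BAM3 went from -0.14 to 0.43 and TCH4 from 0.29 to -0.31. Without the fold threshold 7053 genes passed between DMSO 24 h and 6 h, 3846 higher and 3207 lower. The other alternatives gave counts within 1.5 times the 2700, and without single libraries the count was 2222 to 3196 (higher 1220 to 1700, lower 1002 to 1496). With log2(FPKM + 0.1) 3499 genes were called, 2667 of them shared. Of 163 called named genes, 142 to 163 kept their call under each alternative. With the replicate number as a block 2703 genes were called, 2693 of them among the 2700, and 1 of 3 libraries of 6 h correlated best with its own number, so the pairing was not used. Between 72 h and 24 h, no filter gave 10 genes (9 higher, 1 lower), no trend 6 (5 higher, 1 lower), log2(FPKM + 0.1) 1 higher and 2 lower, and leaving out a 24 h library 1 to 4, all higher (0 lower). For the difference between DMSO and ABA plants, leaving out 1 library gave 571 to 1397 genes (315 to 770 above and 240 to 637 below 0), and for ABA 24 h against 6 h 2248 to 2538 (1007 to 1188 higher, 1182 to 1428 lower). List members called numbered 125 to 142 without single DMSO libraries, against 143. The evening element on the forward strand alone was in 14.3% of the evening-phased promoters. The causes were not tested. Low genes are limited by the pseudocount, which shrinks their changes, and the 72 h comparison by its single library.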

Other observations

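The 10 genes with the largest range among the DMSO libraries of 6 h were short or chloroplast-encoded RNAs listed at or near 0 in at least 1 of them. AT3G08520 was listed at 0 in 6 h replicate 1 and at 2589 and 2138 FPKM in replicates 2 and 3, and it was listed at 0 in all DMSO libraries of 24 h and 72 h. AT3G08520 (-7.47) and the small nucleolar RNAs AT3G50825 (-7.18) and AT4G39364 (-4.50) counted among the genes called lower. Each was listed at 0 in 1 of the 6 h libraries and in all of 24 h, so their groups overlapped. The metallothionein MT1A was at 130 FPKM in 6 h replicate 3 and under 0.01 FPKM in the other DMSO libraries. The chloroplast gene PSBI was listed at 0 in 6 h replicate 1 and in 24 h replicates 2 and 3, and at 133 to 589 FPKM in the other DMSO libraries.

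The levels of genes that changed most in ABA plants were read in DMSO libraries. The 68 genes that rose by more than 3 (log2) in ABA plants were read as a share of each treatment's own 24 h mean. In DMSO 6 h replicates 1, 2 and 3 the median was 28.3%, 12.7% and 4.66% of the mean DMSO 24 h level. In the AMF1β libraries of 6 h it was 13.2%, 9.58% and 8.58% of the mean AMF1β 24 h level. Of these 68 genes 59 were called higher in DMSO plants, with a median change of 2.63 there and 3.64 in ABA plants, which chose them. The 157 genes that fell by more than 3 in ABA plants were at a median of 9.93%, 6.73% and 11.6% of their mean DMSO 6 h level in DMSO 24 h replicates 1, 2 and 3, and at 7.13% in the 72 h library. Of the 157 genes 128 were called lower in DMSO plants, with a median change of -2.93 there.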
